A study of Mus musculus with 8 samples.

Results

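The genes described here build the lysosome. They comprise 38 of the 52636 genes counted in RNA from sorted bone marrow mesenchymal stem and progenitor cells (MSPCs), and the rule picks them by symbol, for their known place in the lysosome. It uses no measured value, although earlier results of these data were known when it was set. By role they fall into 13 acidic proteases, 11 proteins that degrade or handle glycans and lipids, 7 membrane proteins and regulators, and 7 parts of the proton pump. All 38 were found in the count table under 1 gene identifier each, and all 38 had a count above 0 in every library, the condition for being tested, which 14598 genes met.

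Lysosomes are acidic organelles in which proteins, glycans and lipids delivered by endocytosis, phagocytosis and autophagy are broken down. The vacuolar H+-ATPase (V-ATPase) pumps protons across the lysosomal membrane, the heavily glycosylated LAMP proteins line that membrane, and the soluble hydrolases inside work best at the low pH that the pump maintains. The transcription factor TFEB and its relatives bind E-box sequences near many lysosomal genes and drive their expression when nutrients are scarce. In bone, osteoclasts secrete lysosomal proteases such as cathepsin K to dissolve matrix, while mesenchymal cells use lysosomes to turn over collagen, membrane proteins and lipid.

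RNA was sequenced from the MSPCs of 4 control (CTR) and 4 conditional knockout (cKO) C57BL/6 mice, with 1 library from each mouse. CTR mice carried Flk2-cre and 1 floxed Cxcr4 allele (Flk2-cre+ Cxcr4fl/+), cKO mice carried Flk2-cre and only floxed alleles of Cxcr4 (Flk2-cre+ Cxcr4fl/fl), and all were 6 weeks old according to the sample labels, while the methods give an older range for the mice of the study. Flk2-cre acts in multipotent hematopoietic progenitors and their progeny, not in MSPCs, so that the sequenced cells are niche cells of an altered marrow and not cells that lost the gene. MSPCs were sorted from digested marrow as cells without CD45, Ter119, CD31 and CD144 that carried PDGFRα and a GFP reporter of stem cell factor. The genotypes that the paper gives for these libraries do not name the allele behind this reporter. In the paper, 1 Kitl-GFP allele brought membrane-bound stem cell factor and hematopoietic stem cell numbers of cKO mice back to control level. Each sample title also carries a number, which lies between 67 and 86 for the first and the third replicate of each genotype and between 26 and 32 for the other replicates (CTR2, CTR4, cKO2, cKO4). Its meaning is not given in the labels. Each of these title ranges holds 2 mice of either genotype.

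Levels are given as CPM, the counts of a gene scaled by TMM to a common library size, for comparisons between libraries, and as TPM, which also divides by the exonic length of the gene, for comparisons between genes. Libraries held between 31047344 and 38216877 counted reads, and mitochondrial transcripts took 0.530% to 0.653% of them. Markers of MSPCs were abundant, with Cxcl12 at 18423 ± 1617 TPM (SD, n = 8) and Lepr at 2115 ± 268 TPM. Among markers of cells that the sort should remove, Cd3e had 0 counts in all libraries, Ptprc had 0 to 32 counts, and the osteoclast genes Calcr, Ocstamp, Dcstamp and Oscar had 0. Other blood markers were present, with Hbb-bs at 114 to 489 TPM, Hba-a1 at 65.6 to 250 TPM, S100a9 at 46.4 to 189 TPM and S100a8 at 35.3 to 141 TPM, and the 11 genes of that list summed to between 56.6 and 241 CPM. The 14 macrophage markers summed to between 23.9 and 59.6 CPM. In a bulk sample, fewer cells of a type and less RNA per cell cannot be told apart.

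Lysosomal transcripts were abundant, and most of them varied little from mouse to mouse. The 38 genes together took 1.31% ± 0.025 of all counts (SD, n = 8), with 1.30% ± 0.00989 in CTR and 1.31% ± 0.0360 in cKO (n = 4 each). Their median level of 138 TPM stood beside 15.4 TPM over all genes tested, and 20 of the 38 lay in the top 10% of tested genes. The coefficient of variation was taken within CTR and within cKO (n = 4 each) and averaged. It had a median of 8.93% for the 38 genes and of 19.7% for all genes tested. It stayed under 15% for 31 of the 38 genes, and the highest values were 59.3% for Ctss and 26.0% for Tfeb. The 38 genes were not compared with genes of like level, so a lower spread cannot be told apart from their higher abundance.

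**Figure D1:**
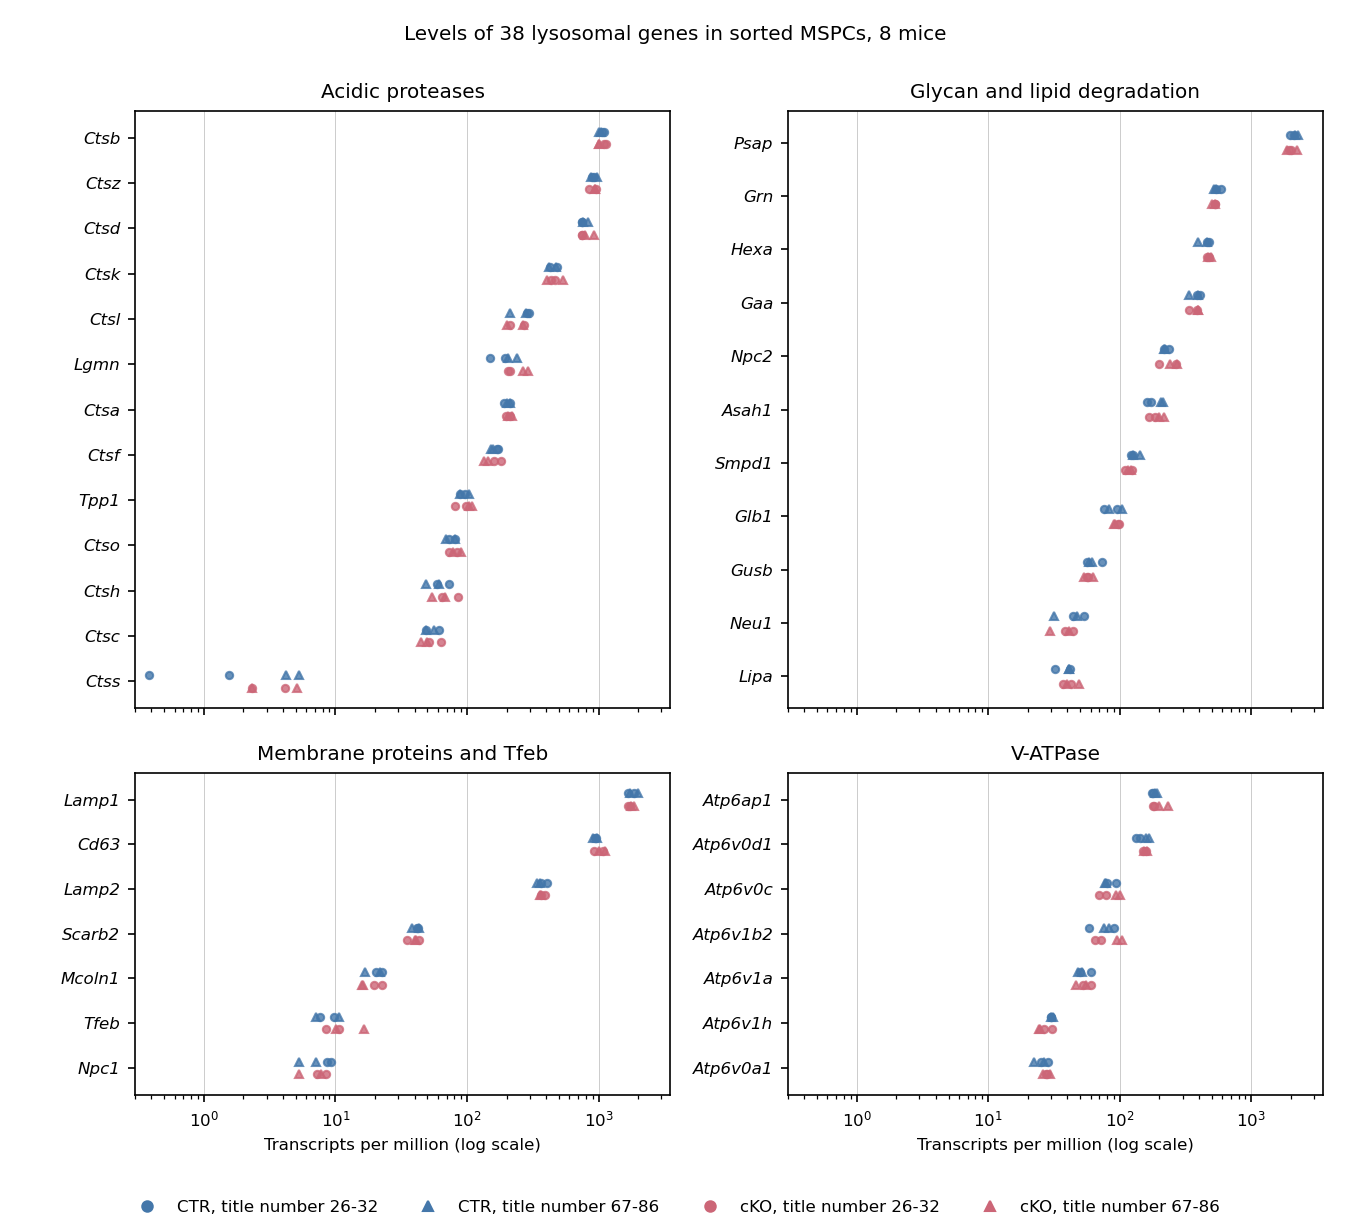
Level of each of the 38 genes in TPM (x axis, log scale) in each of the 8 libraries, in panels by role and ordered by mean level, with CTR in blue, cKO in red, circles for title numbers 26-32 and triangles for 67-86. Psap and Lamp1 lay furthest to the right, with means of 2054 and 1793 TPM, Ctss stayed under 6 TPM, and CTR and cKO points overlapped for every gene.

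The highest level belonged to Psap, which encodes prosaposin, the precursor of the saposins that present sphingolipids to their hydrolases. Psap stood at 2258, 1952, 2133 and 2094 TPM in CTR1 to CTR4 and at 2208, 2005, 1849.7 and 1935 TPM in cKO1 to cKO4, which placed it at rank 53 among all genes by mean level. Lamp1, the most abundant of the membrane glycoproteins, followed at 1793 ± 115 TPM, Ctsb at 1057 ± 47.8 TPM and Cd63, a tetraspanin of late endosomes and lysosomes, at 989 ± 74.3 TPM (SD, n = 8). These 4 genes made up 47.5% ± 0.796 of the summed TPM of the 38, and the first 10 made up 76.0% ± 0.458. With lengths taken from the longest coding transcript in place of all exons, Cd63 moved to the first place at 2662 TPM and Lamp2 to the fifth at 791 TPM, so that the order at the top depends on the length used.

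Neighbours in this order were often not separated. Of the 37 pairs of neighbours, the first gene was higher than the second in all 8 libraries for 12, and the ranges of the 2 genes did not overlap for 8. The steps without overlap were Lamp1 over Ctsb, Ctsd over Grn, Grn over Hexa, Ctsk over Gaa, Lamp2 over Ctsl, Smpd1 over Tpp1, Lipa over Atp6v1h and Npc1 over Ctss. Psap and Lamp1 were not separated, since Lamp1 was the higher of the pair in 1 of 8 libraries by exonic length and in 4 of 8 by coding transcript length.

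Among the proteases, 3 cathepsins dominated. Ctsb, a cysteine protease that also trims peptides from its targets' ends, held 26.2% ± 1.07 of the summed TPM of the 11 cathepsin genes, Ctsz held 22.8% ± 1.04 and Ctsd, the main aspartic protease of lysosomes, held 19.5% ± 1.51. Ctsd shares 34.4% of its exonic bases with an overlapping gene model on the same strand, so that its count may include or lack reads of that model. Ctsl stood at 254 ± 39.0 TPM, and 26.8% of its exonic bases overlap a processed pseudogene on the same strand. Lgmn, the asparaginyl endopeptidase that processes other cathepsins, followed at 220 ± 43.9 TPM, Ctsa at 207 ± 9.49 TPM, Ctsf at 159 ± 15.4 TPM, Tpp1 at 96.2 ± 9.09 TPM and Ctso at 78.5 ± 7.0 TPM. Ctsh, an aminopeptidase, was at 64.5 ± 11.5 TPM and Ctsc, the dipeptidyl peptidase that activates granule proteases of leukocytes, at 53.0 ± 6.48 TPM. Cst3, the secreted inhibitor of cysteine cathepsins, was higher than any of the 38 genes at 5231 ± 450 TPM, and exceeded Ctsb 4.27-fold to 5.69-fold across libraries.

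Ctsk and Ctss lie next to each other on chromosome 3, on the same strand and 17.4 kb apart, and their levels were far apart. Ctsk, the collagenolytic cathepsin best known from osteoclasts, had 423, 427, 472 and 486 TPM in CTR1 to CTR4 and 536, 469, 406 and 437 TPM in cKO1 to cKO4. Ctss, a cathepsin of antigen-presenting cells, had 66, 5, 55 and 23 counts in the CTR libraries and 67, 57, 31 and 37 counts in the cKO libraries, at a mean of 3.16 ± 1.77 TPM. In each of the 8 libraries the TPM of Ctsk exceeded that of Ctss at least 80.6-fold. The high Ctsk level was found in libraries where Calcr, Ocstamp, Dcstamp and Oscar, genes of differentiated osteoclasts, were at 0 counts, and where Acp5, which encodes the osteoclast acid phosphatase, had 56 to 270 counts and Mmp9 had 25 to 331 against 5925 to 7977 for Ctsk. Itgb3, also on the list of osteoclast markers, stood at 6.15 to 16.8 TPM. Which cells gave the Ctsk reads was not tested.

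The enzymes of glycan and lipid breakdown spanned a wide range under Psap. Grn, whose product progranulin is cut into granulins in the lysosome, stood at 533 ± 24.7 TPM, Hexa, a subunit of β-hexosaminidase, at 461 ± 29.6 TPM, and Gaa, which degrades lysosomal glycogen, at 379 ± 26.1 TPM. Npc2, the soluble cholesterol carrier, was at 233 ± 26.1 TPM, Asah1, the acid ceramidase, at 190.0 ± 21.4 TPM and Smpd1, the acid sphingomyelinase, at 123 ± 9.22 TPM. Lower levels were measured for the galactosidase Glb1 (91.6 ± 8.93 TPM), the glucuronidase Gusb (59.9 ± 5.98 TPM), the sialidase Neu1 (41.3 ± 8.0 TPM) and the acid lipase Lipa (40.5 ± 4.72 TPM). Npc2 and Npc1 hand cholesterol from one to the other, and Npc1, the membrane partner, was at 7.39 ± 1.48 TPM. Units of length weigh on that gap, since Npc1 was at 13 TPM by coding transcript length and Npc2 at 312 TPM.

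On the membrane, Lamp1 exceeded Lamp2 by 4.88 ± 0.469 times in TPM (SD over 8 libraries, range 4.32 to 5.85), and by 2.21 ± 0.212 times with coding transcript lengths. Lamp2 encodes the LAMP form that also serves in chaperone-mediated autophagy, and it stood at 369 ± 20.8 TPM. Scarb2, the receptor that carries glucocerebrosidase to lysosomes, was at 40.7 ± 2.73 TPM and Mcoln1, a calcium channel of the lysosomal membrane, at 19.5 ± 2.88 TPM. Tfeb was at 10.1 ± 2.93 TPM, and its relative Tfe3 was 2.28 ± 0.650 times higher, above Tfeb in 8 of 8 libraries under both lengths. The other relatives were low or silent, with 9 to 61 counts for Mitf and 0 counts for Tfec in all libraries.

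Because TFEB recognises E-boxes of the CLEAR type, the promoters of the 38 genes were searched for the general E-box CACGTG and for TCACGTGA, the core of the CLEAR element, which contains that E-box. Both motifs read the same on either strand. RefSeq sequence on GRCm38.p6 from 250 bases before to 50 bases after the start was at hand for 32 of the 38 genes, and Asah1, Atp6v1b2, Atp6v1h, Ctsb, Ctsh and Npc1 had no entry. CACGTG was present for 11 of these 32 genes (34.4%) and for 8.09% of all 27025 genes with a promoter sequence. TCACGTGA was present for 5 of the 32 (15.6%) and for 1.1% of all genes. Such a match describes letters in a window and not a bound site. The 30 bases around each TCACGTGA are shown, since they are the sequence feature that these 5 genes share, with the motif in capitals and read 5′ to 3′ on the strand of the gene:
Atp6v0d1, chr8:105566050-105566079, minus strand: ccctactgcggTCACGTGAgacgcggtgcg
Atp6v1a, chr16:44139373-44139402, minus strand: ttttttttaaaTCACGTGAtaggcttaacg
Ctsa, chr2:164833749-164833778, plus strand: tgagcaaactgTCACGTGAtgcagatgctc
Ctsa, chr2:164833766-164833795, plus strand: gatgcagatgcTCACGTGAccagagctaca
Ctsd, chr7:142387908-142387937, minus strand: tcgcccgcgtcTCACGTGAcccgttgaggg
Mcoln1, chr8:3500462-3500491, plus strand: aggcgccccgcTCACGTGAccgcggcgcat
The motif's centre lay at the start site of Atp6v0d1, 42 bases before that of Mcoln1, 95 before that of Ctsd and 128 before that of Atp6v1a. Ctsa held 2 copies in 1 promoter, whose windows overlap. The median level was 153 TPM for the 5 genes with TCACGTGA and 159 TPM for the 27 without. For CACGTG it was 207 TPM for the 11 genes with the motif and 96.2 TPM for the rest of the 32. These differences were not tested.

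The V-ATPase is built from a membrane sector (V0) and a catalytic sector (V1), and for several subunits the genome holds alternative genes that serve different membranes or tissues. Of the 25 V-ATPase genes, the 7 listed above and 18 others, 19 had counts in every library and 4 had 0 counts in all. For the d, B and E subunits, the widely expressed gene was the one with counts. Atp6v0d1 stood at 153 ± 10.9 TPM while Atp6v0d2, the form of osteoclasts and kidney, had 0 counts. Atp6v1b2 stood at 80.3 ± 15.4 TPM while Atp6v1b1, the form of the kidney and inner ear, had 0. Atp6v1e2 and Atp6v1g3 were also at 0 counts in all libraries, which at these totals allows up to 0.0785 to 0.0966 CPM (3 counts per library, counting error only).

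For the a subunit, which sets where the pump sits, Tcirg1, Atp6v0a1 and Atp6v0a2 had counts in every library. Tcirg1, the a3 form of secretory lysosomes and of the osteoclast border, had 45.6, 53.9, 42.7 and 68.1 TPM in CTR1 to CTR4 and 54.0, 62.7, 53.7 and 38.9 TPM in cKO1 to cKO4. Atp6v0a1, the a1 form, had 26.5, 28.7, 22.2 and 25.0 TPM in CTR and 29.6, 27.6, 26.1 and 27.7 TPM in cKO. Tcirg1 was higher than Atp6v0a1 in 8 of 8 libraries under both length measures, by 1.97 ± 0.392 times in TPM. Atp6v0a2 stood at 35.3 ± 7.29 TPM, below Tcirg1 in 8 of 8 libraries under both length measures. Its order against Atp6v0a1 depends on the length used, since it was the higher of the pair in 7 of 8 libraries by exonic length and in 3 of 8 by coding transcript length, where the ratio was 1.03 ± 0.245. Atp6v0a4, the a4 form of the kidney, had 0 to 28 counts. The remaining members were Atp6ap1, an accessory subunit, at 190.3 ± 18.4 TPM, the proton-binding ring subunit Atp6v0c at 83.9 ± 10.9 TPM, the catalytic subunit Atp6v1a at 53.1 ± 5.46 TPM and the regulatory subunit Atp6v1h at 28.4 ± 2.75 TPM. Atp6v0c was below Atp6v0d1 by exonic length and above it by coding transcript length in 8 of 8 libraries, and its processed pseudogenes took 52 to 71 counts and 0 to 3 counts per library.

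**Figure D2:**
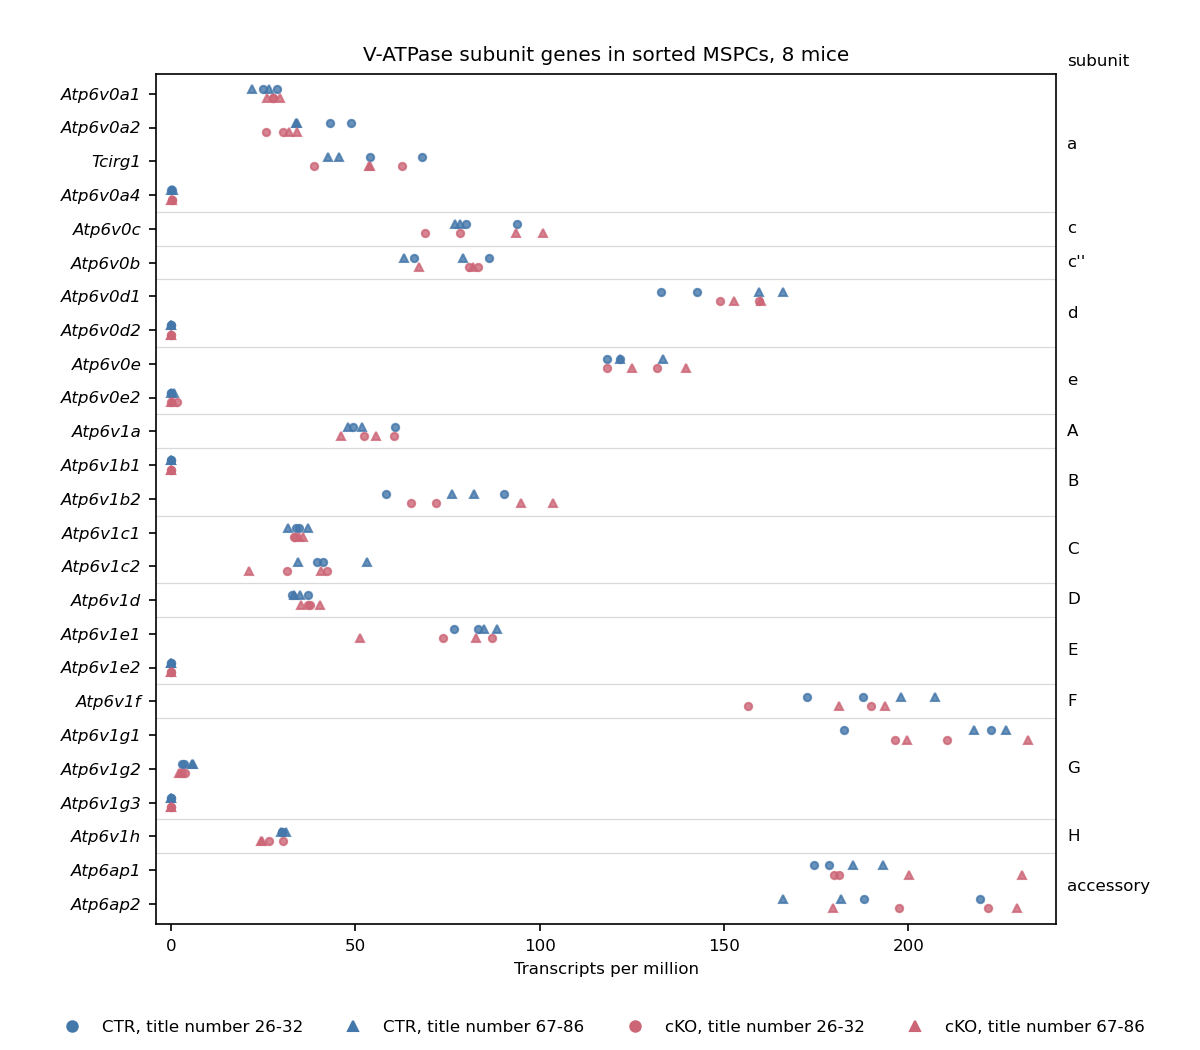
Level in TPM (x axis, linear) of the 25 V-ATPase genes in each of the 8 libraries, grouped by the subunit they encode, with CTR in blue, cKO in red, circles for title numbers 26-32 and triangles for 67-86. Atp6v0d2, Atp6v1b1, Atp6v1e2 and Atp6v1g3 lay at 0 in all libraries, and the a subunit was split over Tcirg1, Atp6v0a2 and Atp6v0a1.

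Whether loss of Cxcr4 in hematopoietic cells altered this program in MSPCs was asked by comparing cKO with CTR. With edgeR's quasi-likelihood test and Benjamini-Hochberg adjustment over the 14598 genes, 0 of the 38 genes passed an adjusted p of 0.05, in a comparison where 0 genes passed (0.0%). At an unadjusted p under 0.05 the count was also 0 of 38, beside 4.43% of all genes. DESeq2's Wald test likewise gave 0 of 38 at either threshold, while it called 23 genes of all tested. The paper reports differentially expressed genes in its MSPCs from DESeq2's likelihood ratio test with a batch correction. Here that test with the title range in the fit called 47 genes of all tested. It called 0 of the 38, with 1 at an unadjusted p under 0.05. The groups did not separate completely for any of the 38, beside 2.62% of all genes. Of the log2 fold changes, 24 were above 0 and 14 below, their median was 0.037 (all genes tested, -0.0013), and they ranged from -0.19 for Neu1 to 0.40 for Tfeb.

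The size of any difference is bounded for most of the program. The 95% interval of the fold change lay inside 1.5-fold in either direction for 34 of the 38 genes, beside 43.3% of all genes, and the exceptions were Ctss, Lgmn, Neu1 and Tfeb. The standard error of the log2 fold change had a median of 0.107 for the 38 genes and of 0.219 for all genes tested. All genes tested had a lower median level, and neither comparison was matched for level. By role, the log2 fold changes had a median of 0.046 for the proteases (10 above 0 and 3 below), -0.0025 for the glycan and lipid enzymes (5 and 6), -0.036 for the membrane proteins and Tfeb (3 and 4), and 0.063 for the V-ATPase (6 and 1). None of these counts holds a gene that passed the test.

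**Figure D3:**
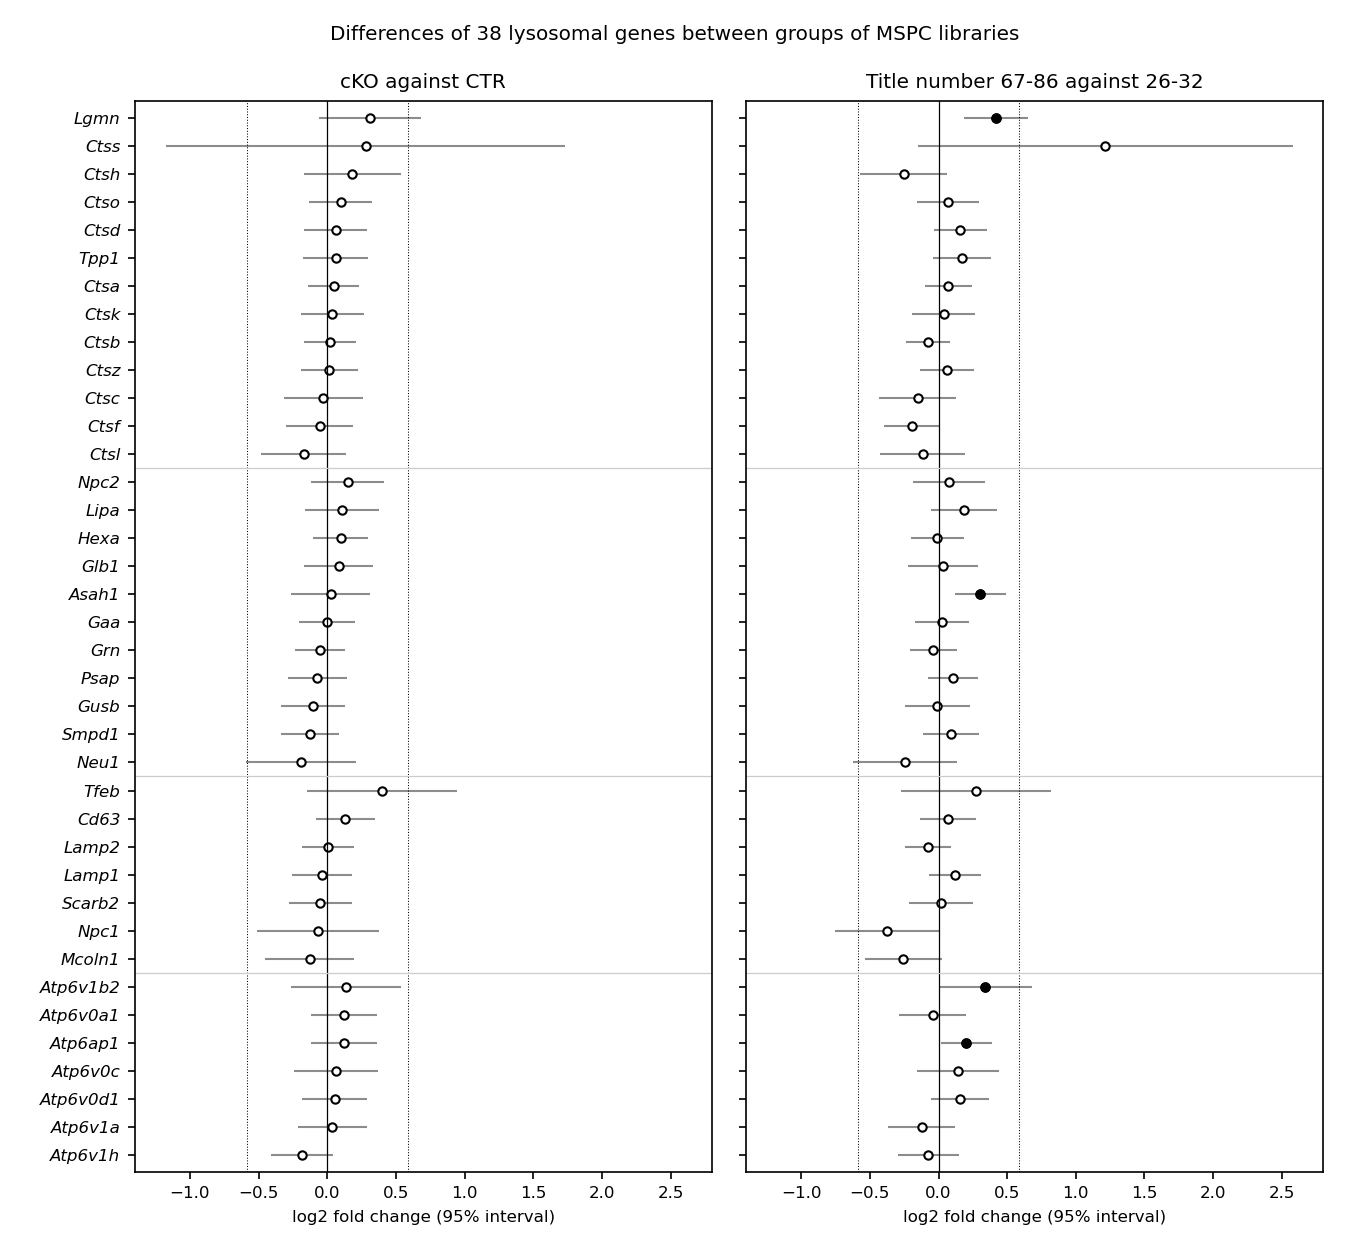
Log2 fold change with its 95% interval (x axis) for the 38 genes, for cKO against CTR on the left and for title numbers 67-86 against 26-32 on the right, from edgeR, with horizontal lines between roles, dotted lines at 1.5-fold and filled points for an unadjusted p under 0.05. On the left 0 points are filled and 34 intervals stay inside the dotted lines, and on the right Lgmn, Asah1, Atp6v1b2 and Atp6ap1 are filled.

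The median absolute log2 fold change of the 38 genes in this comparison was 0.078. Of the genes with the highest level, Psap, Lamp1 and Ctsb differed by less than that and Cd63 by more. Psap had 1856, 1591, 1758 and 1669 CPM in CTR1 to CTR4 and 1800.4, 1584, 1542 and 1614 CPM in cKO1 to cKO4, a log2 fold change of -0.072 (SE 0.0956). The groups overlapped, with CTR1 the highest and cKO3 the lowest. Lamp1 differed by -0.036 (SE 0.0984), Ctsb by 0.020 (SE 0.0855) and Cd63 by 0.13 (SE 0.0973) on the log2 scale. Cd63 had 1077, 1035, 1009.7 and 1018 CPM in CTR and 1222, 974, 1133 and 1206 CPM in cKO, so that its lowest library was also a cKO library.

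Ctsk was measured with 192, 192, 214 and 213 CPM in CTR1 to CTR4 and 241, 204, 186 and 201 CPM in cKO1 to cKO4, a log2 fold change of 0.036 (SE 0.102, 95% interval -0.19 to 0.27). Both the highest and the lowest library were cKO. Ctss had 2.14, 0.153, 1.71 and 0.615 CPM in CTR and 2.05, 1.62, 0.953 and 0.962 CPM in cKO. Its log2 fold change of 0.28 had a standard error of 0.65 and an interval from -1.17 to 1.73, and it was -0.092 without CTR2. At these counts a difference in Ctss was not detectable.

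Lgmn had the smallest unadjusted p of the 38 genes in edgeR. In the exact two-sided permutation test, Atp6v1h (p = 0.114) and Smpd1 (p = 0.143) came below it. Lgmn had 142, 103, 166 and 132 CPM in CTR1 to CTR4 and 185, 141, 204 and 144 CPM in cKO1 to cKO4, with means of 136 ± 26.0 and 169 ± 30.9 CPM (SD, n = 4 each). The groups overlapped, since CTR3 and CTR1 reached the lower cKO libraries. The log2 fold change was 0.31 (SE 0.167), with an unadjusted p of 0.0930 and an adjusted p of 0.999 in edgeR, and an exact two-sided permutation test gave p = 0.171, where the smallest p that the design allows is 0.0286. Within title numbers 26-32 the difference in mean log2 CPM was 0.29 and within 67-86 it was 0.34. A fit that also held the title range gave an unadjusted p of 0.0155 and an adjusted p of 0.893 in edgeR. With single libraries left out, the log2 fold change lay between 0.19 and 0.42. The unadjusted p in edgeR then ranged from 0.0371 without CTR3 to 0.256 without cKO3. With all libraries kept, all 8 macrophage markers that could be tested were higher in cKO, with 0 past the adjusted threshold. C1qb was at a log2 fold change of 1.22 (unadjusted p = 0.0366, edgeR). The 14 markers summed to 23.9 to 51.4 CPM in CTR and 30.0 to 59.6 CPM in cKO. Their part in the Lgmn values was not tested. The rest of that list was at 0 in some libraries, was not tested and did not share 1 direction. Itgam (0 to 7 counts) and Vsig4 (0 to 11) had reads only in CTR, and Fcgr1 (0 to 19) only in cKO. Mrc1 stood at 0.661 to 3.93 TPM in CTR and 0 to 3.03 TPM in cKO. Adgre1 stood at 0 to 2.62 TPM in CTR and 0.673 to 2.50 TPM in cKO. Siglec1 stood at 0 to 0.782 TPM in CTR and 0 to 1.90 TPM in cKO. The 4 tested markers of other blood cells were also above 0 in cKO against CTR, with 0 at an unadjusted p under 0.05 in edgeR, and that list summed to 56.6 to 178 CPM in CTR and 136 to 241 CPM in cKO.

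Tfeb had the largest fold change of the 38 genes. It was measured with 18.0, 16.5, 12.1 and 12.6 CPM in CTR1 to CTR4 and 17.0, 13.9, 28.5 and 18.5 CPM in cKO1 to cKO4. A single library, cKO3, was the highest at 28.5 CPM, and the next was cKO4 at 18.5 CPM. The other cKO libraries fell into the CTR range or just above it. The log2 fold change was 0.40 (SE 0.246, unadjusted p = 0.136 in edgeR) and 0.16 without cKO3. Of the genes with TCACGTGA in the promoter the median log2 fold change was 0.046, and of those without it 0.036. For CACGTG the medians were 0.038 with the motif and 0.060 without it.

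Among the other proteases, Ctsh had 82.3, 79.2, 66.4 and 95.5 CPM in CTR and 91.8, 83.7, 74.3 and 117 CPM in cKO, a log2 fold change of 0.18 (SE 0.158). Ctsl had 412, 554, 547 and 559 CPM in CTR and 386, 508, 529 and 417 CPM in cKO, a log2 fold change of -0.17 (SE 0.139). For Ctsl 3 of the 4 CTR libraries lay above every cKO library and CTR1 lay among the lowest. Ctsl is a broad cysteine protease that also acts outside the lysosome.

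The lower end of the fold changes held Neu1, Atp6v1h, Ctsl and Mcoln1. Neu1 had 52.7, 48.9, 35.3 and 58.4 CPM in CTR and 33.0, 41.4, 46.7 and 50.4 CPM in cKO, a log2 fold change of -0.19 (SE 0.18) with an interval of -0.59 to 0.21. Atp6v1h had 87.3, 86.9, 91.3 and 85.1 CPM in CTR and 70.7, 74.9, 73.0 and 90.4 CPM in cKO, a log2 fold change of -0.18 (SE 0.102, unadjusted p = 0.104 in edgeR). Here 3 cKO libraries lay below all CTR libraries and cKO4 lay within their range. Without cKO4 the log2 fold change was -0.27 with an unadjusted p of 0.0194 and an adjusted p of 1.00 in edgeR. Without any other single library the log2 fold change lay between -0.20 and -0.15. The unadjusted p then ranged from 0.116 without CTR4 to 0.223 without cKO1 in edgeR. Mcoln1 had 49.0, 51.0, 38.3 and 44.5 CPM in CTR and 35.6, 49.5, 37.0 and 45.1 CPM in cKO, and its log2 fold change was -0.13 (SE 0.145). For Neu1 and Mcoln1 the groups overlapped over most of their ranges.

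The rest of the program showed like values. Lamp2 differed by 0.0064 (SE 0.0851) and Grn by -0.053 (SE 0.0817) on the log2 scale. Grn had 561, 605, 538 and 541 CPM in CTR and 548, 533, 528 and 555 CPM in cKO, and the groups overlapped. Of the pump, Atp6v0d1 differed by 0.054 (SE 0.106) and Atp6v1a by 0.038 (SE 0.114). The summed TPM of the 7 V-ATPase genes was 601 ± 22.2 in CTR and 631 ± 56.8 in cKO, that of the 13 proteases 4310 ± 119 and 4394 ± 73.8, that of the 11 glycan and lipid genes 4255 ± 157 and 4159 ± 200.4, and that of the 7 membrane genes 3214 ± 133 and 3243 ± 122 (SD, n = 4 each). For each of these 4 sums the difference between genotypes was smaller than the larger of the SDs.

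**Figure D4:**
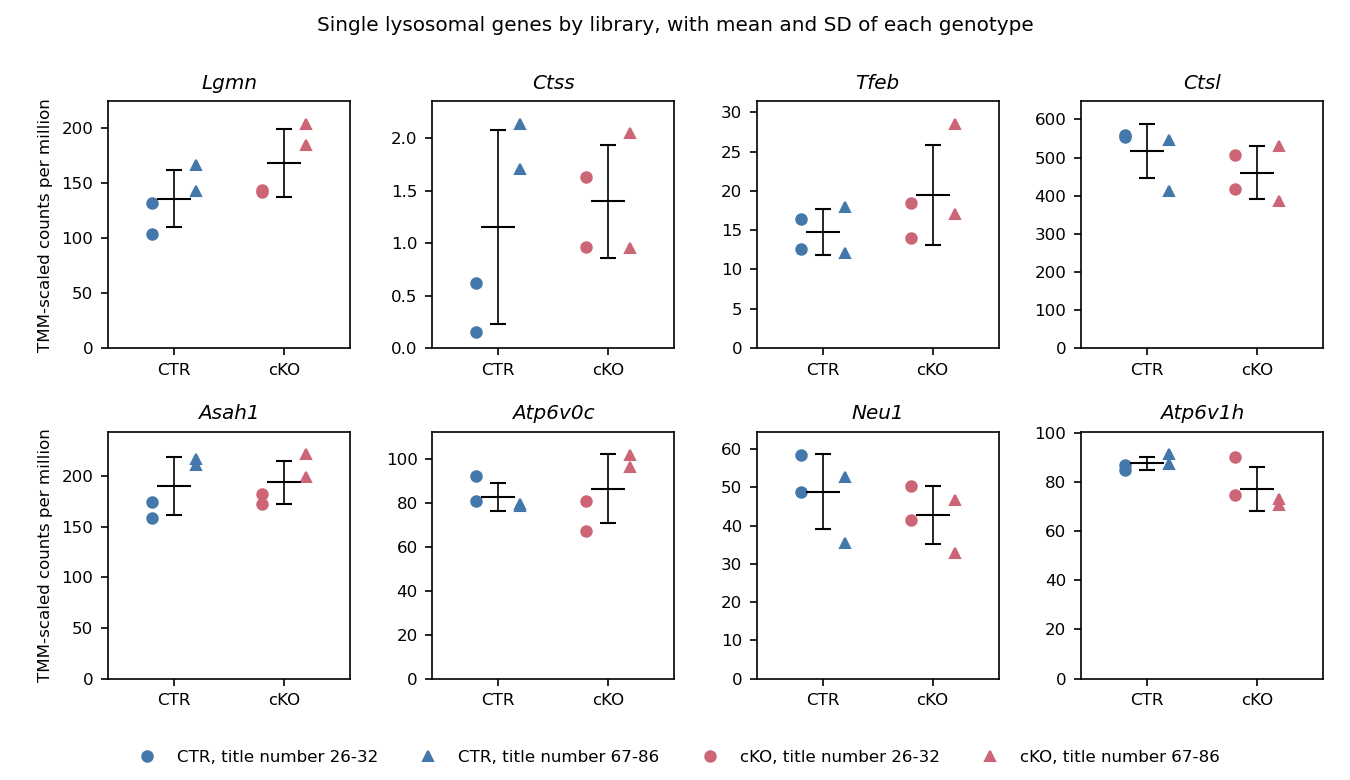
TMM-scaled CPM (y axis, from 0) of 8 of the genes in each library, by genotype, with circles for title numbers 26-32, triangles for 67-86, and the mean and SD (n = 4) of each genotype in black. CTR and cKO points overlapped in all 8 panels, the triangles of Asah1 lay above its circles in both genotypes, and cKO3 was highest for Tfeb at 28.5 CPM.

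The title ranges were compared over the same genes, in a fit that also held genotype. Again 0 of the 38 genes passed an adjusted p of 0.05 in edgeR, beside 2 genes of all tested (0.0137%). At an unadjusted p under 0.05 there were 4, beside 11.6% of all genes, and all 4 were higher in 67-86, a direction that 5.1% of all genes took at that threshold. The 4 libraries of one range lay entirely apart from those of the other for 4 genes, beside 6.87% of all genes. These were Asah1, Ctsd and Atp6ap1, higher in 67-86, and Ctsb, lower in 67-86. The median log2 fold change was 0.051 (all genes tested, -0.0065), with 23 of the 38 above 0, and the 95% interval lay inside 1.5-fold for 32 of the 38, beside 40.6% of all genes, which were not matched for level.

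Lgmn had the smallest p in this comparison, at a log2 fold change of 0.42 (SE 0.103, unadjusted p = 0.0028, adjusted p = 0.208 in edgeR). Its libraries of 67-86 had 142 to 204 CPM and those of 26-32 had 103 to 144 CPM, so that the ranges overlapped at their ends. DESeq2's Wald test called it at an adjusted p of 0.0268 and its likelihood ratio test at 0.0299, where these tests called 2.6% and 2.34% of all genes. Asah1 had 217, 211, 199 and 221 CPM in CTR1, CTR3, cKO1 and cKO3 and 175, 158, 182 and 172 CPM in CTR2, CTR4, cKO2 and cKO4. Every library of 67-86 lay above every library of 26-32, with a log2 fold change of 0.31 (SE 0.0822, unadjusted p = 0.0049, adjusted p = 0.236 in edgeR) and an exact two-sided permutation p of 0.0286, the smallest possible.

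Both other genes at this threshold belong to the pump. Atp6ap1 had 153 to 165 CPM in 26-32 and 168 to 208 CPM in 67-86, a log2 fold change of 0.20 (SE 0.0826, unadjusted p = 0.0363 in edgeR). Atp6v1b2 had 92.1 to 139 CPM in 26-32 and 121 to 163 CPM in 67-86, a log2 fold change of 0.34 (SE 0.149, unadjusted p = 0.0497 in edgeR). Both had adjusted p-values of 0.397 or more. Ctss, with few counts, had the largest fold change at 1.22 (SE 0.603, unadjusted p = 0.0749 in edgeR), and Npc1 the lowest at -0.38 (SE 0.166).

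Cell markers were compared between these ranges as well, and 0 of them passed the adjusted threshold in edgeR. At an unadjusted p under 0.05, 3 macrophage, 2 MSPC, 1 osteolineage and 2 other blood markers were higher in 67-86. Lower at that threshold were 1 MSPC and 1 osteolineage marker. Of all genes, 11.6% had an unadjusted p under 0.05 in either direction. Of the 8 tested macrophage markers, 6 had a log2 fold change above 0 and 2 below. C1qb was higher in 67-86 by 1.37, C1qa by 1.14 and Spic by 2.37 on the log2 scale (unadjusted p of 8.59e-04, 0.0174 and 0.0019 in edgeR, none past the adjusted threshold), and the 14 macrophage markers summed to 41.9 to 54.0 CPM in 67-86 and 23.9 to 59.6 CPM in 26-32. The 9 MSPC markers summed to 66572 to 74860.1 CPM in 67-86 and 57767 to 65091 CPM in 26-32, and the 7 osteolineage markers to 8375 to 11098 CPM and 11495 to 14408 CPM, without overlap in either case. These sums are carried by few genes. Of the MSPC markers 3 were above 0 (Cxcl12, Adipoq and Lpl) and 6 below, with a median log2 fold change of -0.093, and of the 6 tested osteolineage markers 3 were above 0 and 3 below, with a median of 0.076, while Ibsp, the most abundant of them, was at -0.44. The 4 tested markers of other blood cells were all above 0, and 2 of them, Hbb-bs (0.89) and Hba-a1 (0.62), had an unadjusted p under 0.05 in edgeR. That list summed to 137 to 241 CPM in 67-86 and 56.6 to 147 CPM in 26-32. Their part in the values of Lgmn, Asah1, Ctss and the pump genes was not tested.

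Whether the genotype difference itself depended on the title range was tested as an interaction in edgeR. For 0 of the 38 genes did it pass an adjusted p of 0.05 (0.0% of all genes), and at an unadjusted p under 0.05 there was 1 gene, beside 3.44% of all. This was Atp6v0c, which had 79.5 and 78.4 CPM in CTR1 and CTR3, 101 and 96.2 CPM in cKO1 and cKO3, 80.5 and 92.3 CPM in CTR2 and CTR4, and 67.1 and 80.8 CPM in cKO2 and cKO4. In 67-86 both cKO libraries lay above both CTR libraries, while in 26-32 cKO2 lay below both CTR libraries and cKO4 between them. The difference between these effects was 0.55 on the log2 scale (SE 0.204, unadjusted p = 0.0276, adjusted p = 1.00 in edgeR).

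Beyond the 38 genes, 133 others with a role in the lysosome were read from 7 lists of further hydrolases, membrane proteins, pump subunits, the TFEB family with nutrient sensing, delivery to the lysosome, cathepsin inhibitors and autophagy. Of these 118 were tested and 8 had 0 counts in all libraries. In edgeR 0 of the 118 passed an adjusted p of 0.05 for genotype, and at an unadjusted p under 0.05 there were 10 (8.47%), with 7 higher and 3 lower in cKO, beside 4.43% of all genes. Between title ranges 0 passed, and 12 (10.2%) had an unadjusted p under 0.05, with 6 in each direction, beside 11.6% of all genes. The medians of the 7 lists for genotype lay between -0.030 and 0.062.

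The single genes of smallest p in each list give the scale of these values. For genotype, Fnip2, a partner of folliculin in nutrient signalling to TFEB, was at a log2 fold change of 1.06 (SE 0.288, unadjusted p = 0.0042 in edgeR) on 92 to 429 counts. Sgsh, a heparan sulfatase, was at 0.38 (SE 0.125), Atp6v0a2 at -0.38 (SE 0.143), Gnptab, which makes the mannose 6-phosphate tag of hydrolases, at -0.46 (SE 0.18), Atg9a, the autophagy scramblase, at -0.32 (SE 0.115), Laptm4b at 0.18 (SE 0.0929) and Cst3 at 0.057 (SE 0.113). All 7 had an adjusted p of 0.999 in edgeR. Fnip2 passed the threshold in the likelihood ratio test of DESeq2 that included the title range, at 1.05 and an adjusted p of 0.0167, and not in DESeq2's Wald test without it (adjusted p = 0.0609).

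Between title ranges, Gm2a, the activator that presents the ganglioside GM2 to β-hexosaminidase, was at a log2 fold change of 0.65 (SE 0.171, unadjusted p = 0.0042, adjusted p = 0.223 in edgeR). Tfe3 was at -0.32 (SE 0.0927, unadjusted p = 0.0073 in edgeR), while Tfeb was at 0.27 (SE 0.241). Slc29a3, a nucleoside transporter of the lysosomal membrane, was at -0.49 (SE 0.192), Sort1, a sorting receptor, at 0.38 (SE 0.170), Cstb, an inhibitor of cathepsins, at -0.31 (SE 0.171), Gabarapl2 at 0.26 (SE 0.0888) and Atp6v1f at 0.17 (SE 0.105). DESeq2 called Gm2a at 0.66 with an adjusted p of 0.0186 in the Wald test and 0.0216 in the likelihood ratio test.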

How the data were processed

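MSPC libraries of 4 CTR and 4 cKO mice were analysed. Per the methods, HISAT2 and HTSeq were used to align trimmed reads (GRCm38) and count them, and the authors deposited raw counts per gene. Odd values prevail among the low counts, and the strand setting is not given in the sources used here. GENCODE M21 (GRCm38) gave symbols, lengths and coordinates, and may differ from the counting annotation.

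Genes with counts above 0 in all libraries were tested after TMM scaling with edgeR 4.0.16 (quasi-likelihood, Benjamini-Hochberg adjustment over all genes, threshold 0.05) in R 4.3.3, without covariates for genotype and with genotype kept in the fit between title ranges. Exact permutation tests on log2 CPM (prior count 2) enumerated the 70 assignments of 8 libraries to groups of 4. Scripts were tested on simulated data.

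The 38 genes and all lists were chosen with earlier results of these data known. Folds are printed for the 4 largest rises and falls, the 4 highest levels, 9 genes with set roles, the 4 smallest p-values between title ranges, and the smallest p of each further list. Npc1, Tfeb between title ranges, Atp6v0c and the marker genes with folds were named after their values were seen.

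Alternatives were DESeq2 size factors, no filter, filterByExpr, at least 1 CPM in 4 libraries, DESeq2 1.42.0 (Wald and likelihood ratio tests), the title range or the replicate number in the fit, coding transcript lengths, and omission of each library. Single-cell data were not used here.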

Additional observations from a re-analysis of the deposited data

Results flagged for a closer look

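In 6 of 76 sets of 4 libraries (38 genes in 2 genotypes), 1 library stood apart from the other 3 by Dixon's criterion, a gap to the nearest library that takes most of the whole range. Chance alone flags about 1 in 20 sets, here 3.8. Ctsl in CTR1 had the largest such share, 0.928, at 412 CPM against 547 to 559 CPM. CTR3 stood apart for Hexa (0.888, at 237 CPM against 271 to 275) and for Gaa (0.874, at 486 CPM against 551 to 561). Lipa in CTR2 was at 65.0 CPM against 81.8 to 84.2 (0.887), Atp6v0c in CTR4 at 92.3 CPM against 78.4 to 80.5 (0.839), and Ctsa in cKO3 at 315 CPM against 285 to 289 (0.863).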

How the results depend on the processing

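For cKO against CTR, the count of the 38 genes past the threshold was 0 under every alternative that was run, and their median log2 fold change lay between 0.0065 and 0.060 when single libraries were left out. At an unadjusted p under 0.05 the count was 0, but 1 (Lgmn) with the title range (67-86 or 26-32) in the fit, with the replicate block, and in the likelihood ratio test of DESeq2 that included the title range, and 0 to 1 when single libraries were left out. The further lysosomal genes gave 0 calls, but 1 (Fnip2) in that likelihood ratio test, and between title ranges 1 (Gm2a) in DESeq2's Wald and likelihood ratio tests, as did the 38 genes (1, Lgmn). The cause was not tested. Over all genes, the calls for genotype were 0 in edgeR, 23 in DESeq2's Wald test and 47 in its likelihood ratio test that included the title range, and 1 with no filter, filterByExpr or at least 1 CPM. The calls between title ranges were 2 in edgeR, 380 and 342 in the DESeq2 tests, 1 with DESeq2 size factors and 4 with no filter. The calls for the interaction were 0 in edgeR and 22 and 20 in the DESeq2 tests. For cKO against CTR, only members with a printed genotype fold and the named genes of the further lists were followed singly. Among these, leaving out 1 library turned the sign of 7 genes. Their log2 fold changes then ranged from -0.092 to 0.76 (Ctss), -0.082 to 0.017 (Lamp1), -0.0050 to 0.039 (Ctsb), -0.046 to 0.086 (Ctsk), -0.025 to 0.046 (Lamp2), -0.013 to 0.11 (Atp6v0d1) and -0.036 to 0.10 (Atp6v1a). The summed level of the 38 genes was 12403 TPM by exonic length and 14579 TPM by the longest coding transcript. Replicate numbers gave the same number to mice of both genotypes, and the labels do not say whether such mice were paired. The deviations of same-numbered libraries correlated at 0.131, 0.176, 0.0844 and 0.0572. Same-numbered libraries also share a title range. With the replicate block the calls were 0 of 38 and 0 of all genes, and 7 of 8 libraries correlated best with their own number, which is a hint from the data and not the design. Depth limits Ctss (5 to 67 counts) and genes at 0 counts.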
